A study of Mus musculus with 6 samples.

Results

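Genes named for matrix metalloproteases (Mmp), their tissue inhibitors (Timp), and the ADAM and ADAMTS proteases were followed in MPC5, a mouse podocyte cell line that was conditionally immortalised. Members were all protein-coding genes of the deposited table whose symbol begins with Mmp or Timp and a digit, Adam and a digit, or Adamts. This gave 62 of 21719 genes: 20 MMPs, 3 TIMPs, 19 ADAMs, 15 ADAMTSs and 5 ADAMTS-like genes. RNA came from 3 libraries labelled Setdb2KO and 3 labelled Setdb2WT, all from MPC5 cells in high glucose. The labels give neither the edit nor whether the knockout is a single clone, and do not say that replicates were separate cultures, so the p-values reflect the spread among these libraries alone, which may be technical.

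Setdb2, the targeted gene, counts among histone methyltransferases, and its RNA was not lower in the libraries carrying the knockout label. Reads numbered 17, 15 and 25 in the libraries labelled Setdb2KO, against 12, 10 and 9 in those labelled Setdb2WT, with a log2 fold change of 0.73 (SE 0.38, adjusted p = 0.088). Groups are therefore called by their labels, and each direction below describes Setdb2KO-labelled libraries relative to Setdb2WT-labelled ones. Smad3, the other gene looked at, stood at 61.9 ± 2.85 CPM in the libraries labelled Setdb2KO and 162 ± 3.09 CPM in those labelled Setdb2WT (SD, n = 3 each). CPM is the read count scaled to library size with TMM factors. The labels set no direction for Smad3, so its values do not check them. Total reads lay between 36461449 and 37129174 per library. Pairs of Setdb2KO libraries differed by 4.38 to 15.7 times sampling noise (chi-square per degree of freedom), and pairs of Setdb2WT libraries by 2.55 to 2.71.

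MMPs, ADAMs and ADAMTSs are zinc-dependent proteases. MMPs cut collagens and other matrix proteins, ADAMs release the outer parts of membrane proteins such as growth factors and receptors, and ADAMTSs trim proteoglycans and procollagens. TIMPs bind the active site of MMPs, and TIMP3 also inhibits several ADAMs and ADAMTSs while held in the matrix. In the glomerulus, podocytes make much of the basement membrane on which these enzymes act.

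In the libraries labelled Setdb2KO more of these genes fell than rose, and the inhibitor Timp3 was among those that rose. Of the 62 genes, 38 had enough reads to be tested, with the quasi-likelihood test of edgeR and p-values adjusted over 13509 genes by the Benjamini-Hochberg method. Among these 38, 11 rose, 22 fell and 5 did not pass an adjusted p of 0.05. Over all genes tested 83.8% passed, 41.5% higher and 42.3% lower, so the 86.8% of tested members that passed is near that background. By direction, 28.9% of tested members rose and 57.9% fell, and their median log2 fold change was -0.59, against 0.0045 over all genes tested.

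Changes of at least 2-fold were found in 8 members that rose and 17 that fell, together 65.8% of those tested, against 32.6% of all genes tested. Of the members, 3 passed the filter on low counts through the libraries labelled Setdb2KO alone (Adam30, Mmp23 and Mmp25). Another 7 passed through those labelled Setdb2WT alone (Adam11, Adam12, Adam23, Adamts14, Adamts2, Adamts7 and Mmp9). Such genes had to differ, in a direction fixed by the filter, and they also enter the shares by direction and the median above. Their share over all genes tested was not counted. Among the 18 members with a mean of at least 5 CPM, 5 (27.8%) rose and 11 (61.1%) fell, against 40.5% and 47.1% of the 10068 genes at that level. Of these members 44.4% changed at least 2-fold, against 24.2% of those genes. Libraries of the groups did not overlap in 33 of the 38 tested members, against 84.6% of all genes tested.

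**Figure D1:**
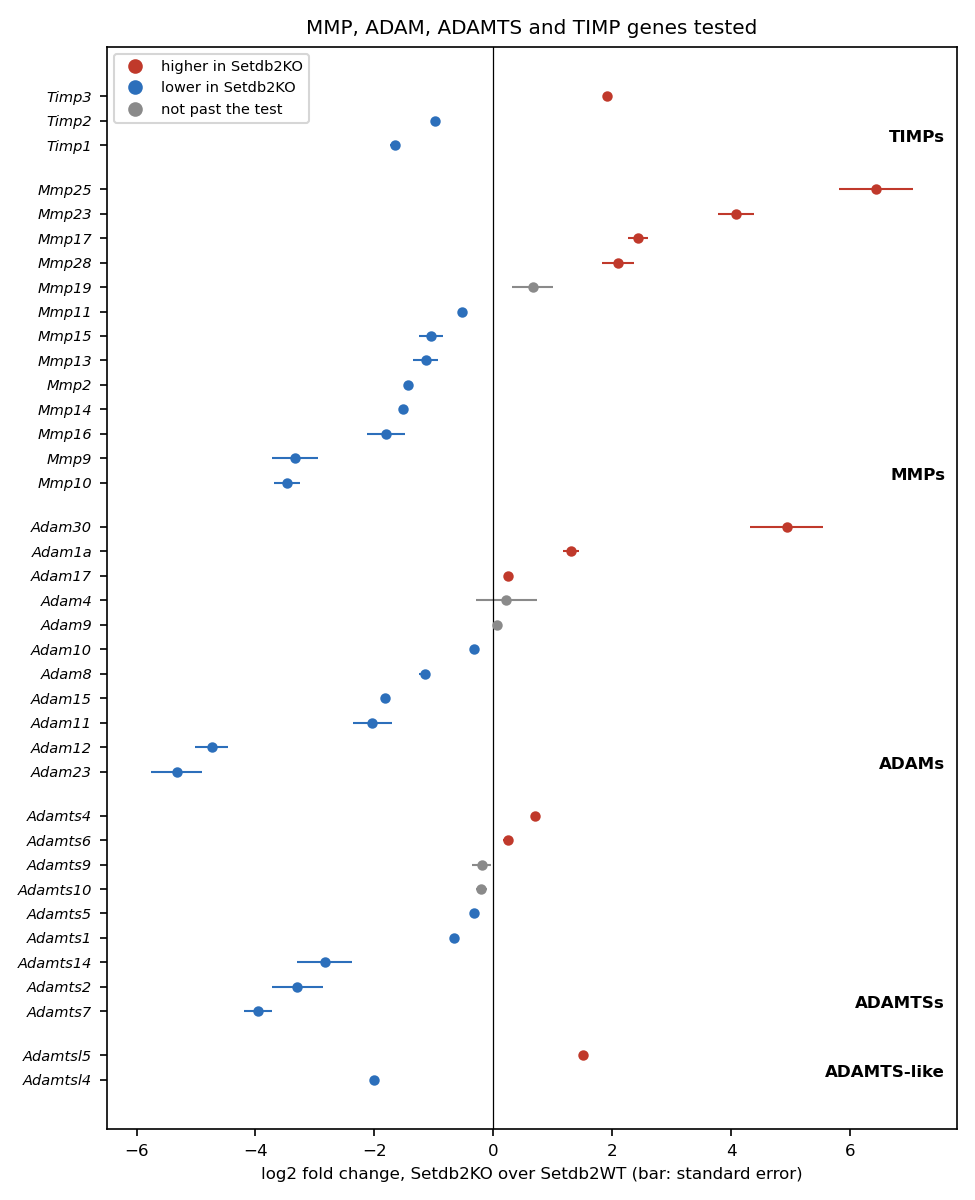
Log2 fold change of each of the 38 tested genes, Setdb2KO over Setdb2WT, with its standard error as a bar, by family. Red marks the 11 higher, blue the 22 lower and grey the 5 that did not pass the test, and all families hold both higher and lower genes.

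Together the 62 genes took about the same share of unscaled reads in both groups, 0.182% to 0.186% in the libraries labelled Setdb2KO and 0.182% to 0.184% in those labelled Setdb2WT. On the TMM scale they summed to 1730 to 1768 CPM in the libraries labelled Setdb2KO, against 1925 to 1938 CPM in those labelled Setdb2WT, which do not overlap. Summed over 20 genes, MMPs came to 78.3, 78.1 and 77.0 CPM in the libraries labelled Setdb2KO, against 153, 158 and 163 CPM in those labelled Setdb2WT. The 3 TIMPs came to 808, 806 and 823 CPM against 645, 647 and 640 CPM. ADAMs summed to 423 to 456 CPM against 540 to 546 CPM, and ADAMTSs to 371 to 384 CPM against 540 to 547 CPM. None of these sums overlapped between the groups.

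As a family the TIMPs had the highest summed level. The highest of the 3 was Timp3 in the libraries labelled Setdb2KO and Timp2 in those labelled Setdb2WT. Timp3, which encodes the matrix-bound inhibitor (Entrez 21859, on chromosome 10), had 21999, 21430 and 22244 reads in the libraries labelled Setdb2KO, against 5301, 5373 and 5232 in those labelled Setdb2WT. Its level was 3.75-fold higher, at 567 ± 13.2 CPM against 151 ± 1.01 CPM (n = 3 each, SD; log2 fold change 1.90, SE 0.03, adjusted p = 1.4e-15). Timp2, which encodes an inhibitor that also helps MMP14 activate MMP2, had 8924, 9411 and 8931 reads against 16096, 16454 and 16045. Its level of 236 ± 6.62 CPM against 463 ± 3.40 CPM was 1.97-fold lower (log2 fold change -0.97, SE 0.03, adjusted p = 9.5e-13). Timp1, a secreted and inducible inhibitor, had 347, 365 and 385 reads against 1151, 993 and 988, and was 3.15-fold lower (log2 fold change -1.65, SE 0.08, adjusted p = 1.0e-10). For each of the 3 genes all Setdb2KO libraries lay on the same side of all Setdb2WT libraries.

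Levels of different genes were compared per kilobase of the longest coding transcript. On that scale Timp3 ranked first of 62 genes in the libraries labelled Setdb2KO, at 120 ± 2.79 CPM per kb, and sixth in those labelled Setdb2WT, at 32.1 ± 0.213 CPM per kb. Timp2 ranked second at 63.5 ± 1.79 CPM per kb, against first at 125 ± 0.915 CPM per kb. Timp3 made up 60.6% to 62.5% of the summed TIMP level in the libraries labelled Setdb2KO, against 16.6% to 17.0% in those labelled Setdb2WT. Timp2 made up 31.9% to 33.9% against 64.1% to 66.2%, and Timp1 5.27% to 5.77% against 16.8% to 19.3%.

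The summed TIMP level per kb did not separate the groups, at 193, 193 and 197 CPM per kb in the libraries labelled Setdb2KO and 194, 190 and 188 CPM per kb in those labelled Setdb2WT. The sum of plain CPM did separate them, because Timp3 has the longest transcript of the 3. MMPs summed to 27.7 ± 0.168 CPM per kb against 55.3 ± 1.83 CPM per kb. The ratio of the TIMP sum to the MMP sum was 6.94, 6.95 and 7.16 in the libraries labelled Setdb2KO, against 3.63, 3.43 and 3.30 in those labelled Setdb2WT. These sums are descriptions of RNA, with no test. In bulk RNA, fewer cells that make a transcript and less of it per cell cannot be told apart.

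**Figure D2:**
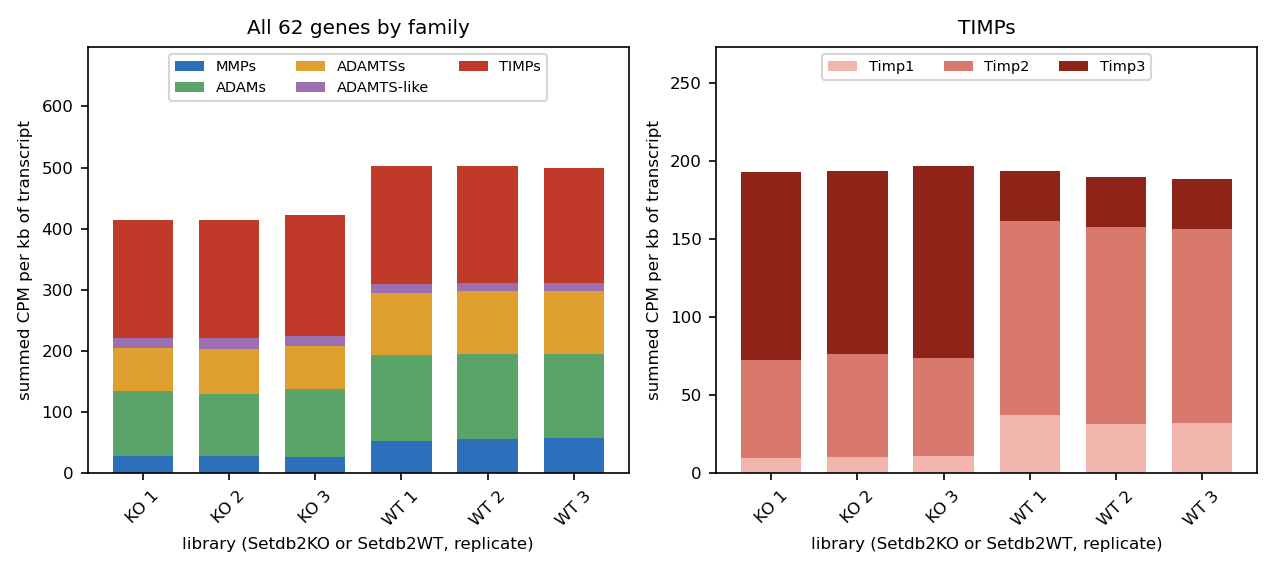
Summed level in CPM per kb of transcript in each library, Setdb2KO libraries left of Setdb2WT libraries, for all 62 genes by family (left) and for the 3 TIMPs (right). TIMP bars reach 188 to 197 in all libraries while Timp3 fills over 60% of them in the libraries labelled Setdb2KO and about 17% in those labelled Setdb2WT.

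Mmp14 and Mmp2, whose products form an activation complex with TIMP2, fell along with Timp2. Mmp14, a membrane-bound collagenase that activates pro-MMP2, had 806, 848 and 762 reads in the libraries labelled Setdb2KO, against 2062, 2152 and 2092 in those labelled Setdb2WT. It was 2.88-fold lower, at 20.9 ± 1.02 CPM against 60.1 ± 1.03 CPM (SD, n = 3 each; log2 fold change -1.52, SE 0.05, adjusted p = 2.0e-12). Mmp2, a gelatinase that cuts type IV collagen, had 721, 672 and 714 reads against 1682, 1673 and 1806. It was 2.70-fold lower, at 18.2 ± 0.732 CPM against 49.2 ± 2.41 CPM (log2 fold change -1.43, SE 0.06, adjusted p = 1.3e-11). No library of either label overlapped the other group in Mmp14 and Mmp2. The other gelatinase, Mmp9, had few reads, 5, 5 and 2 against 35, 39 and 39 (log2 fold change -3.33, SE 0.39, adjusted p = 2.2e-06). Mmp9 passed the filter on low counts through the libraries labelled Setdb2WT alone, so it could be tested only as a lower gene.

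Membrane-type MMPs are anchored by a transmembrane segment or by a lipid (GPI). The 3 tested genes grouped here as membrane-type with a transmembrane segment, Mmp14, Mmp15 and Mmp16, fell. Mmp15 had 42, 53 and 70 reads in the libraries labelled Setdb2KO, against 107, 102 and 101 in those labelled Setdb2WT (log2 fold change -1.05, SE 0.20). Mmp16 had 29, 19 and 11 reads against 52, 73 and 63 (log2 fold change -1.81, SE 0.31). Of the GPI-anchored members, Mmp17 had 216, 226 and 192 reads against 36, 34 and 36, a 5.41-fold higher level of 5.48 ± 0.427 CPM against 1.01 ± 0.0393 CPM (SD, n = 3 each; adjusted p = 3.5e-09).

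Mmp25, the other GPI-anchored member, which is known from leukocytes, passed the filter on low counts through the libraries labelled Setdb2KO alone, so it could be tested only as a higher gene. It had 49, 42 and 38 reads in the libraries labelled Setdb2KO, against 0, 0 and 1 in those labelled Setdb2WT. Summed over libraries the reads stood in a ratio of 117 (exact 95% interval 20.6 to 4657, for counting error alone), and the adjusted p was 2.6e-07. Of the leukocyte markers, Ptprc stood at 0 against 0.133 CPM, Itgam at 0.294 against 0 CPM and C1qb at 0.017 against 0 CPM. Cd68 was higher, at 5.63 against 4.50 CPM, and Csf1r lower, at 5.24 against 9.74 CPM. The part of leukocytes in this result was not tested. Mmp24, a transmembrane member of the nervous system, had too few reads to test, 9 against 3 over the libraries of each group. This grouping by anchor was made with the values known and holds 5 tested genes. Mmp23, which rose, was placed with the other MMPs below and is not part of it, although its product is also anchored by a transmembrane segment. The falls above therefore do not hold for every transmembrane MMP.

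On chromosome 9, 7 members lie in a run with at most 1 other gene between neighbours, and MMP genes absent from the deposited table are not counted. The 2 of them that could be tested, Mmp10 and Mmp13, fell. Mmp10, stromelysin 2, had 28, 16 and 44 reads in the libraries labelled Setdb2KO, against 295, 301 and 293 in those labelled Setdb2WT. Its level of 0.761 ± 0.368 CPM against 8.47 ± 0.0620 CPM (SD, n = 3 each) was 11.1-fold lower (log2 fold change -3.47, SE 0.21, adjusted p = 1.6e-09). Mmp13, a collagenase, had 37, 35 and 44 reads against 69, 86 and 77 and was 2.20-fold lower (log2 fold change -1.14, SE 0.22, adjusted p = 2.2e-04). Mmp3, stromelysin 1, which lies between them, had 2, 4 and 2 reads against 10, 13 and 24 and was not tested. Its ratio of summed reads was 0.154, with an exact 95% interval of 0.0630 to 0.330. The remaining genes of this run, Mmp12, Mmp27, Mmp20 and Mmp7, had at most 1 read in any library.

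Human and rodent collagenase and stromelysin promoters are known for an AP-1 element, where Fos and Jun proteins bind, close to a TATA box. The stretches of 120 bases that end just before the RefSeq start of Mmp10 and Mmp13 hold both, and are shown with those of Timp1, which fell with them, and Timp3, which rose. The sequences are RefSeq's, build GRCm38.p6, on the gene's strand. They cover chr9:7502222-7502341 (plus strand), chr9:7272394-7272513 (plus), chrX:20870046-20870165 (plus) and chr10:86300292-86300411 (plus). Capitals mark TGANTCA, the letters of the AP-1 element, and TATAAA.
Mmp10: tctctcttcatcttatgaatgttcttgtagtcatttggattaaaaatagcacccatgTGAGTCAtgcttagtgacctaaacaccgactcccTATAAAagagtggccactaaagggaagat
Mmp13: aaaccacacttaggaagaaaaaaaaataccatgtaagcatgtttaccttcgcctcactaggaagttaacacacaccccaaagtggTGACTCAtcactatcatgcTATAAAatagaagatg
Timp1: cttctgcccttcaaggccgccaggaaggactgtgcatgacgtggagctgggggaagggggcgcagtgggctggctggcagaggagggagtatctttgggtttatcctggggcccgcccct
Timp3: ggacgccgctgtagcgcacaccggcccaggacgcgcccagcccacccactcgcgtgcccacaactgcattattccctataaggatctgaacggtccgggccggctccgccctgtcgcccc

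In Mmp10 the AP-1 letters start at position -63 and TATAAA at -29, counting back from the base before the start, and in Mmp13 they start at -35 and -16. Neither was found in the windows of Timp1 and Timp3. Of the 40 members with a promoter entry, from 250 bases before to 50 after the start, 8 held TGANTCA, which reads the same on both strands, against 8.97% of 27025 genes with an entry. Mmp3, Mmp7, Mmp10, Mmp12, Mmp13 and Mmp20, all of the chromosome 9 run, were 6 of these 8. TATAAA, searched on the gene's strand only, was found in 9 of the 40, against 9.77%. Most of the members with either set of letters had too few reads to test: of the 17 not tested, 6 held the first and 6 the second. None of the 7 members with an entry that rose held either, and of the 15 that fell 2 held the first and 3 the second. Of all tested genes with an entry 6.44% and 5.45% held them, so with so few members these counts set no difference between rises and falls. The part of either element in the changes was not tested.

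Other MMPs went both ways. Mmp11, stromelysin 3, which furin activates inside the cell, had 801, 805 and 767 reads in the libraries labelled Setdb2KO, against 947, 1054 and 1083 in those labelled Setdb2WT, and fell 1.43-fold (adjusted p = 3.1e-06). Mmp28, epilysin, likewise activated by furin, had 98, 99 and 111 reads against 29, 12 and 24, a 4.28-fold rise (adjusted p = 5.1e-06). Mmp23, a member with an unusual cysteine-rich tail, had 160, 179 and 154 reads against 8, 15 and 3. It passed the filter on low counts through the libraries labelled Setdb2KO alone, so its direction was fixed by that filter. It reached 4.26 ± 0.322 CPM against 0.247 ± 0.170 CPM (SD, n = 3 each), with a log2 fold change of 4.09 (SE 0.30, adjusted p = 1.2e-08). Mmp19 had 29, 17 and 31 reads against 14, 13 and 17 and did not pass (adjusted p = 0.093), although it passed without Setdb2KO replicate 2 (log2 fold change 0.89, adjusted p = 0.043) and under total-count scaling (0.82, adjusted p = 0.043). Mmp21 was not tested, with 0, 1 and 10 reads against 0, 0 and 0.

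**Figure D3:**
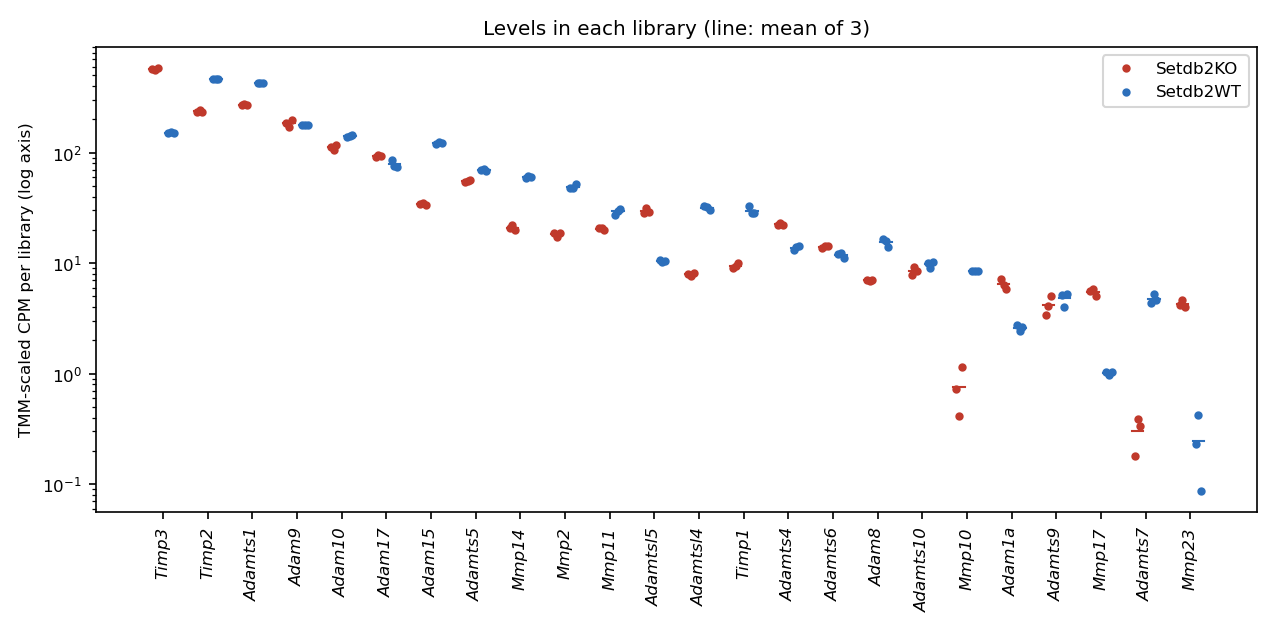
TMM-scaled CPM on a log axis in each library for the 24 tested genes that reached 4 CPM in either group, Setdb2KO (red) left of Setdb2WT (blue) within each gene, with a line at the mean of 3. Timp3 stands at 554 to 580 in the libraries labelled Setdb2KO, above all other points, and Adam9, Adamts9 and Adamts10 are the genes whose groups overlap.

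The main sheddases moved little. Adam10, which cleaves Notch and cadherins, had 4353, 4087 and 4520 reads in the libraries labelled Setdb2KO, against 4834, 4959 and 4984 in those labelled Setdb2WT, a 1.26-fold fall (log2 fold change -0.33, SE 0.04, adjusted p = 3.4e-06). Adam17, which releases TNF and EGF receptor ligands, had 3543, 3705 and 3539 reads against 2969, 2675 and 2596, a 1.19-fold rise (log2 fold change 0.25, SE 0.05, adjusted p = 2.5e-04). These groups did not overlap, and both genes also passed under total-count scaling, which shifts all genes by 0.15 (log2) and put Adam10 at -0.18 and Adam17 at 0.40. Adam9, a sheddase with a broad range of substrates, had 7188, 6645 and 7563 reads against 6143, 6218 and 6156. At 185 ± 12.8 CPM against 176 ± 0.617 CPM its groups overlapped and it did not pass (log2 fold change 0.07, SE 0.04, adjusted p = 0.16), although it passed under total-count scaling (0.22, adjusted p = 2.8e-04) and without Setdb2KO replicate 2 (0.12, adjusted p = 8.1e-04).

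Larger changes were found in other catalytic ADAMs. Adam15, which carries an integrin-binding motif in its disintegrin domain in human, had 1335, 1350 and 1292 reads in the libraries labelled Setdb2KO, against 4207, 4359 and 4201 in those labelled Setdb2WT. It fell 3.54-fold, to 34.4 ± 0.613 CPM, against 122 ± 1.79 CPM (SD, n = 3 each; log2 fold change -1.82, SE 0.04, adjusted p = 1.6e-14). Adam12, a protease of fusing muscle cells and of fibrosis, had 7, 6 and 3 reads against 124, 136 and 136 (log2 fold change -4.74, SE 0.28, adjusted p = 9.4e-10). It passed the filter on low counts through the libraries labelled Setdb2WT alone, so its direction was fixed by that filter. The ratio of summed reads, Setdb2WT over Setdb2KO, was 27.3, with an exact 95% interval of 16.6 to 48.2. Adam8, known from leukocytes, had 274, 267 and 269 reads against 583, 561 and 491, a 2.22-fold fall (adjusted p = 1.7e-08).

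The ADAMs with no working protease site, which act as adhesion and receptor partners in the brain, had few reads. Adam23 and Adam11 passed the filter on low counts through the libraries labelled Setdb2WT alone, so they could be tested only as lower genes. Adam23 had 1, 2 and 2 reads in the libraries labelled Setdb2KO, against 71, 75 and 50 in those labelled Setdb2WT, a ratio of summed reads, Setdb2WT over Setdb2KO, of 43.2 (exact 95% interval 18.2 to 135; adjusted p = 3.0e-08). Adam11 had 8, 10 and 11 reads against 34, 32 and 43 (log2 fold change -2.04, SE 0.33, adjusted p = 5.3e-05). Adam22 was not tested, with 2, 1 and 0 reads against 8, 16 and 20, which also do not overlap.

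Of the ADAMs known from testis and sperm, 3 were tested, and 1 of them, Adam30, passed the filter on low counts through the libraries labelled Setdb2KO alone. Adam1a, whose product helps sperm proteins mature, had 280, 247 and 225 reads in the libraries labelled Setdb2KO, against 97, 86 and 91 in those labelled Setdb2WT, 2.49-fold more (adjusted p = 4.3e-07). In the GENCODE annotation of GRCm38, 24.0% of its exon bases are shared with Mapkapk5 on the same strand, which was at 125 CPM against 65.7 CPM, and 63.7% with Gm42878, which was not analysed here, so the value of Adam1a is uncertain. Its neighbour Adam1b had 13, 6 and 4 reads against 0, 0 and 0 and was not tested. Adam30 had 31, 26 and 22 reads against 0, 1 and 1, which summed over libraries is a ratio of 35.8 (exact 95% interval 9.59 to 301; adjusted p = 4.1e-06). Adam4, with 6, 12 and 18 reads against 5, 15 and 8, did not pass (adjusted p = 0.70), and Adam18, Adam3, Adam21 and Adam32 had at most 10 reads in any library.

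Among the ADAMTSs that cut proteoglycans such as versican and aggrecan, the most abundant fell and a less abundant relative rose. Adamts1 had 10392, 10725 and 10273 reads in the libraries labelled Setdb2KO, against 14766, 15156 and 14829 in those labelled Setdb2WT. It fell 1.57-fold, to 271 ± 5.10 CPM, against 426 ± 3.73 CPM (SD, n = 3 each; log2 fold change -0.65, SE 0.03, adjusted p = 3.8e-11), and had the third highest level per kb of the 62 genes, against the second highest. Adamts5, its neighbour on chromosome 16, had 2115, 2140 and 2151 reads against 2451, 2485 and 2359, a 1.26-fold fall (adjusted p = 2.2e-06). Adamts4, the other main aggrecanase with Adamts5, had 864, 891 and 855 reads against 462, 497 and 494, a 1.63-fold rise (adjusted p = 1.3e-07). Adamts9 had 130, 160 and 195 reads against 179, 142 and 183, overlapped and did not pass (adjusted p = 0.27).

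Collagen-processing and cartilage-matrix ADAMTSs had few reads. Adamts7, Adamts2 and Adamts14 passed the filter on low counts through the libraries labelled Setdb2WT alone, so their direction was fixed by that filter. Adamts7, which cuts the cartilage protein COMP, had 7, 15 and 13 reads in the libraries labelled Setdb2KO, against 151, 185 and 162 in those labelled Setdb2WT (log2 fold change -3.96, SE 0.24, adjusted p = 1.5e-09). Adamts2, which removes the N-terminal propeptide of procollagen, had 3, 5 and 4 reads against 47, 39 and 24. Adamts14, with the same activity, had 4, 2 and 4 reads against 25, 17 and 25, and the log2 fold changes were -3.29 (SE 0.43) for Adamts2 and -2.84 (SE 0.46) for Adamts14. Adamts3, the third procollagen N-proteinase, was not tested, with 26 reads over the libraries labelled Setdb2KO and 15 over those labelled Setdb2WT. Adamts6, which acts on cell-surface heparan sulfate and microfibrils, had 525, 552 and 553 reads against 422, 437 and 386, a 1.19-fold rise (adjusted p = 0.0082) that missed the threshold without Setdb2WT replicate 3 (adjusted p = 0.0504). Adamts10, a microfibril protein, had 303, 356 and 324 reads against 353, 318 and 354 and did not pass (adjusted p = 0.064), although it passed without Setdb2KO replicate 2 (log2 fold change -0.26, adjusted p = 0.023) and without Setdb2WT replicate 2 (-0.27, adjusted p = 0.028).

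ADAMTS-like genes encode secreted relatives that have no protease domain, and both that were tested changed, in opposite directions. Adamtsl4, which binds fibrillin microfibrils, had 306, 295 and 313 reads in the libraries labelled Setdb2KO, against 1151, 1127 and 1060 in those labelled Setdb2WT. It fell 4.02-fold, to 7.90 ± 0.270 CPM, against 31.8 ± 1.24 CPM (SD, n = 3 each; log2 fold change -2.01, SE 0.07, adjusted p = 2.0e-12). Adamtsl5 had 1098, 1214 and 1115 reads against 375, 357 and 360 and rose 2.85-fold, to 29.6 ± 1.56 CPM, against 10.4 ± 0.304 CPM (log2 fold change 1.51, SE 0.07, adjusted p = 4.3e-11).

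The members not named so far, Adam19, Adam33, Adamts12, Adamts15, Adamts16, Adamts17, Adamts18, Adamtsl1, Adamtsl2 and Adamtsl3, had at most 9 reads in any library. None of these 10 genes was tested. Adamts12 had 0 reads over the libraries labelled Setdb2KO against 7 over those labelled Setdb2WT, and Adamtsl1 had 0 against 6.

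Exons of several members are shared with a gene on the other strand in the GRCm38 annotation, and the strand setting of the counts is not given, so reads there cannot be told apart. Syn3, whose locus holds Timp3, shares 21.3% of the Timp3 exon bases but stood at 0.700 CPM against 1.10 CPM. Iah1 shares 4.35% of those of Adam17 and stood at 26.2 CPM against 14.5 CPM. Tmem198b shares 22.3% of those of Mmp19 and stood at 8.35 CPM against 15.01 CPM. For Adam15 the shared 20.6% belongs to an antisense gene that was not analysed here.

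A list of partners of these proteases held more falls than rises. It includes genes that activate, carry or clear them, and also inhibitors and other secreted metalloproteases. Of 37 listed partners 27 were tested. Of these 8 (29.6%) rose, 16 (59.3%) fell and 3 missed the threshold, and the median log2 fold change was -0.34. Over all genes tested 41.5% rose and 42.3% fell, and among those with a mean of at least 5 CPM 40.5% and 47.1%. The TspanC8 tetraspanins, which escort ADAM10 to the surface and steer its substrates, showed 4 falls among 5 tested. Tspan14 fell 5.59-fold, to 7.14 ± 0.303 CPM in the libraries labelled Setdb2KO, against 39.9 ± 1.45 CPM in those labelled Setdb2WT (SD, n = 3 each). Tspan17, Tspan15 and Tspan33 fell 4.44-fold, 2.74-fold and 1.27-fold. Tspan5, the most abundant of them by reads, was at 101 ± 2.18 CPM against 99.6 ± 0.759 CPM and did not pass (adjusted p = 0.59).

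Partners of ADAM17 moved otherwise. Rhbdf2, an iRhom that carries ADAM17 to the surface, rose 1.83-fold, to 111 ± 3.33 CPM, against 60.7 ± 1.31 CPM (SD, n = 3 each), and Frmd8, which stabilises iRhoms, rose 1.34-fold. Rhbdf1, the related iRhom, fell 1.30-fold, to 76.9 ± 5.14 CPM, against 99.7 ± 2.04 CPM. The convertases Furin and Pcsk7, which cut the propeptides of many of these enzymes and of other proteins, rose 1.47-fold and 1.95-fold. Pcolce and Pcolce2, which enhance removal of the procollagen C-terminal propeptide, fell 3.61-fold and 11.1-fold. Mme, the membrane metalloprotease neprilysin, fell 4.44-fold, to 28.5 ± 1.76 CPM, against 126 ± 1.76 CPM. Adjusted p over the named partners that passed ran from 9.7e-15 to 0.015.

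Surface proteins known to be shed by these enzymes fell more often than they rose. Of 31 listed 23 were tested. Of these 7 (30.4%) rose, 15 (65.2%) fell and 1 missed the threshold, and the median log2 fold change was -0.58. Over all genes tested 41.5% rose and 42.3% fell, and among those with a mean of at least 5 CPM 40.5% and 47.1%. Sdc1, a heparan sulfate proteoglycan, fell 8.65-fold, to 17.6 ± 0.867 CPM in the libraries labelled Setdb2KO, against 152 ± 3.33 CPM in those labelled Setdb2WT (SD, n = 3 each; adjusted p = 6.1e-16). Notch1, the receptor cut by ADAM10 in signalling, fell 7.53-fold, to 13.8 ± 0.548 CPM, against 104 ± 1.85 CPM (adjusted p = 1.4e-15). The receptor kinases Met and Axl fell 2.65-fold and 1.82-fold. F11r, a junctional adhesion protein, rose 2.70-fold, to 197 ± 5.91 CPM, against 72.9 ± 2.10 CPM (adjusted p = 1.4e-13). Sdc4, Alcam and Nrg1 rose 1.48-fold, 1.82-fold and 1.19-fold.

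Of 19 matrix proteins on which the family acts, 12 were tested. Of these 10 (83.3%) fell, 0 rose and 2 missed the threshold, and the median log2 fold change was -0.82. Over all genes tested 83.8% passed, 41.5% higher and 42.3% lower, so only the direction in this small list differs from that background. Among genes with a mean of at least 5 CPM, 40.5% rose and 47.1% fell. Agrn, a heparan sulfate proteoglycan of the glomerular basement membrane, fell 2.12-fold, to 449 ± 8.39 CPM in the libraries labelled Setdb2KO, against 951 ± 3.68 CPM in those labelled Setdb2WT (SD, n = 3 each; adjusted p = 1.2e-13). Col4a1 and Col4a2, type IV collagen chains, fell 2.34-fold and 2.15-fold, and fibronectin, Fn1, 1.78-fold. Vcan, the versican gene, did not pass, at 1.19 ± 0.0526 CPM against 1.14 ± 0.238 CPM (adjusted p = 0.82). By edgeR's test 0 rose at an unadjusted p under 0.05 as well, and DESeq2 and limma-voom also called 0, while edgeR without the filter on low counts called 1.

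**Figure D4:**
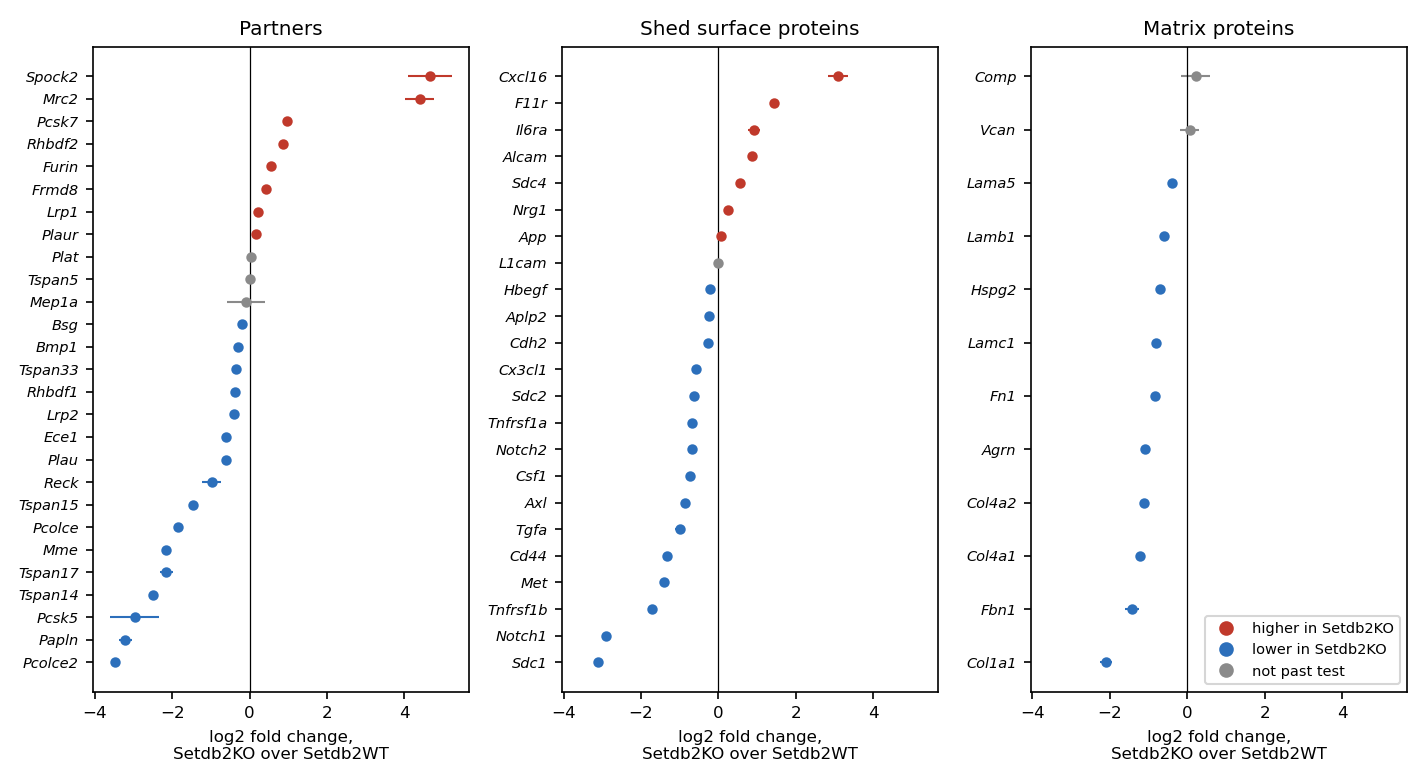
Log2 fold change, Setdb2KO over Setdb2WT, with standard error, of tested partners (left, 27 genes), shed surface proteins (middle, 23) and matrix proteins (right, 12). Of the matrix proteins 10 lie left of 0 and passed the test, while the other lists hold 8 and 7 genes that rose.

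Markers of the cell types that make these proteases also differed. The podocyte list summed to 1678 to 1748 CPM in the libraries labelled Setdb2KO, against 1990 to 1994 CPM in those labelled Setdb2WT, with 5 of 14 tested genes higher and 8 lower. Podocyte regulators Wt1 and Lmx1b stood under 0.03 CPM in both groups, while Synpo was at 25.4 CPM against 43.6 CPM. Fibroblast genes summed to 604 to 612 CPM against 2266 to 2347 CPM, nearly all Vim, with Dcn, Lum and Postn under 0.3 CPM in both groups. Mesangial genes summed to 32.0 to 34.4 CPM against 133 to 138 CPM, and 6 of 6 tested fell. Parietal epithelium genes summed to 1089 to 1173 CPM against 3082 to 3126 CPM, with 5 of 6 lower, and tubular genes to 433 to 455 CPM against 1090 to 1104 CPM, with 3 of 5 lower. Endothelial genes summed to 6.31 to 7.57 CPM against 9.67 to 10.2 CPM, with 1 of 3 tested higher, Esam, and 2 lower. Immune genes summed to 9.72 to 12.1 CPM against 13.7 to 15.2 CPM, and of the 2 tested Cd68 was higher (adjusted p = 0.049) and Csf1r lower. Over all genes tested 83.8% passed, 41.5% higher and 42.3% lower, and these marker lists are small. The part of these cell types in the changes of the protease genes was not tested.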

How the data were processed

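Counts of reads per gene in 6 MPC5 libraries were used as the authors deposited them, with 1 column per library; fastp, HISAT and HTSeq on GRCm39 are named in the submitters' processing notes. Versions, annotation and use of strand were not given in the sources used here. TRIzol served for extraction of total RNA and a VAHTS V6 kit for the libraries, according to the labels.

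From these counts, edgeR's quasi-likelihood test (edgeR 4.0.16, R 4.3.3) was run on all genes with TMM scaling, filterByExpr at its minimum count of 10, and genotype as the only term, two-sided, with Benjamini-Hochberg adjustment and a threshold of 0.05. CPM is scaled by TMM factors, SD is over 3 libraries, and fitted fold changes use a prior count of 0.125. Exact intervals are Clopper-Pearson at 95% and cover counting error only. Chromosomes, lengths (62 of 62 genes matched), exon overlaps and promoters (40 of 62) come from GENCODE M21 and RefSeq on GRCm38, not the authors' build. Values per library are given for members past the test with a mean of at least 1 CPM and for those not past it with at least 5 CPM, and for other members as stated. From the partner and substrate lists up to 4 genes per direction with the smallest adjusted p and at least 5 CPM are named, with further TspanC8 genes and the 2 iRhoms for their role. Members and lists were chosen with earlier results of these data known. Same-numbered libraries did not deviate together, with correlations of 7.2e-04, -0.030 and -0.012, so replicate numbers were not taken as pairs. Not every exon overlap is reported here. Scripts were tested on simulated data. Alternatives used limma 3.58.1 and DESeq2 1.42.0 and are given in the closing section.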

Additional observations from a re-analysis of the deposited data

How the results depend on the processing

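Over 14 alternatives, 33 of the 38 tested genes kept their direction and their side of the threshold wherever they were tested, and the exceptions were Adam4, Adam9, Adamts10, Adamts6 and Mmp19. Adam4, not past the test at 0.22, changed sign without Setdb2KO replicate 3 (-0.19) and without Setdb2WT replicate 1 (-0.090), passed in neither, and ranged from -0.19 to 0.71 over the left-out libraries. Total-count scaling raised all log2 fold changes by a median of 0.15 and called Adam9 (0.22) and Mmp19 (0.82) higher, for 13 rises and 22 falls among members. Among all genes it gave 6550 rises and 4833 falls, against 5607 and 5711 with TMM. Among partners it gave 10 rises and 14 falls, among shed proteins 8 and 14, and among matrix proteins 0 and 10. Adam9 (0.12), Mmp19 (0.89) and Adamts10 (-0.26) also passed without Setdb2KO replicate 2, Adamts10 (-0.27) without Setdb2WT replicate 2, and Adamts6 (0.19) did not pass without Setdb2WT replicate 3. Leaving out each library gave 10 to 13 rises and 22 to 25 falls among members, 8 rises and 15 to 16 falls among partners, 6 to 7 rises and 15 falls among shed proteins, and 0 rises and 10 to 11 falls among matrix proteins. Without a filter, 1 matrix protein rose, where 62 members were tested, 13 higher and 25 lower. With the replicate block, 11 members rose and 22 fell, so the block changed no count, and DESeq2's size factors, upper-quartile scaling, the DESeq2 Wald test and limma-voom gave the same counts. The 10 highest members by CPM per kb shared 8 genes with the 10 highest by CPM in the libraries labelled Setdb2KO and 9 in those labelled Setdb2WT. The 24 members that were not tested had at most 24 reads in any library, and at this depth no statement on them is made beyond their reads.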
